A study of Mus musculus with 7 samples.

Results

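The 7 genes described here encode the m6A writer complex: Mettl3, Mettl14, Wtap, Zc3h13, Cbll1, Rbm15 and Rbm15b. They were taken by symbol from an expression table of 22556 genes, all 7 were found, and all 7 averaged 1 RPM (the deposited unit, read pairs of a gene relative to all read pairs on genes of the library) or more, the minimum for a gene to be tested, which 13599 genes reached. Virma, the other core subunit, is listed in the table under its older symbol 1110037F02Rik and is given beside them, outside the count of 7. The question was whether blocking the catalytic activity of METTL3 changes the RNA that the genes of its own complex make on chromatin.

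Chromatin-associated RNA sequencing (ChrRNA-seq), which enriches for RNA still held at its template, was carried out in iXist-ChrXCast (clone C7H8) mouse embryonic stem (mES) cells, a Cast x 129S line in which a TetOn promoter replaces the Xist promoter of the Cast allele. Cells were treated with STM2457, a small-molecule inhibitor of METTL3 catalysis, or with its solvent DMSO for 6 h, and then for another 24 h with doxycycline (Dox) added, so that Xist was induced in every library, controls included. There were 3 DMSO libraries, 2 at 10 µM STM2457, 1 at 20 µM and 1 at 30 µM, all from the same clone grown on mouse fibroblast feeders. The libraries held between 9300549 read pairs on genes (20 µM) and 28030180 (DMSO replicate 2).

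The complex adds a methyl group to adenosines of newly made RNA at the N6 position. METTL3 carries the active site and METTL14, its partner in a heterodimer, holds the RNA and shapes the site without catalysing the reaction. WTAP anchors the heterodimer to a larger assembly with VIRMA, ZC3H13 and CBLL1 (HAKAI), and RBM15 and its paralogue RBM15B bind RNA and bring the complex to its targets, Xist RNA among them.

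The active site is the part of the complex that the inhibitor occupies, and the coding sequence around it is shown for both genes of the heterodimer, from GENCODE transcripts of build GRCm38 (mm10). Capitals mark the codons of the catalytic DPPW motif of METTL3 and of the EPPL motif at the matching place in METTL14. The Mettl3 stretch lies in exon 6 of 11 of Mettl3-201, at chr14:52297563-52297610 on the minus strand, and its motif begins at codon 395 of 580. The Mettl14 stretch lies in exon 7 of 11 of Mettl14-201, at chr3:123374787-123374834 on the minus strand, and its motif begins at codon 192 of 456.
Mettl3: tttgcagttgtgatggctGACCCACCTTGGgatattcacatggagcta
Mettl14: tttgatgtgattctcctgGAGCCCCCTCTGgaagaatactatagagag

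The libraries fell into 2 sets along the leading axis of variation, principal component 1, which held 78.8% of the variance of 13103 autosomal genes. Set 1 held the 2 DMSO libraries numbered 1 and 2 with those at 10 µM, and set 2 held the third DMSO library with the higher doses. No label calls these sets batches. The higher doses are in set 2 only, so that dose and set are partly confounded over all libraries. Each gene was therefore compared over all libraries and also with the DMSO library of the same pair or set. Of 10 mES cell markers, 9 were above 0 in every library and Sox2 was listed at 0 in all of them, with a summed level of 1459 to 1841 RPM. The 10 feeder fibroblast markers summed to between 10.3 and 14.9 RPM in set 1 and between 4.79 and 5.91 RPM in set 2, and Lum was at 0 in 6 of the 7 libraries. The part of feeder RNA in the differences between the sets was not tested. In bulk RNA, fewer cells that make a transcript and less of it per cell cannot be told apart.

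Rbm15 and Wtap were the genes of the complex with the most RNA per length and Virma the one with the least. The counted region is the full span of transcripts, introns included, and ran from 3017 bases for Rbm15b to 65187 for Virma. The part of introns in this order was not tested. In DMSO replicate 3 Rbm15 and Wtap were nearer to each other, at 8.74 and 7.15 RPM per kb. In DMSO the levels divided by the length of the counted region were 12.9 ± 3.61 RPM per kb for Rbm15, 7.29 ± 0.466 for Wtap and 3.74 ± 0.388 for Zc3h13 (SD, n = 3 for each). They were 3.59 ± 0.565 RPM per kb for Mettl3, 3.36 ± 0.852 for Rbm15b, 2.61 ± 0.745 for Cbll1, 2.10 ± 0.294 for Mettl14 and 1.27 ± 0.125 for Virma. From Zc3h13 down to Mettl14, each gene differed from the next in this order by less than the larger of their SDs, whereas Rbm15, Wtap and Virma stood apart from their neighbours. The summed level of the 7 genes was between 611 and 674 RPM in all libraries, lowest in DMSO replicate 3 and highest at 20 µM.

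**Figure D1:**
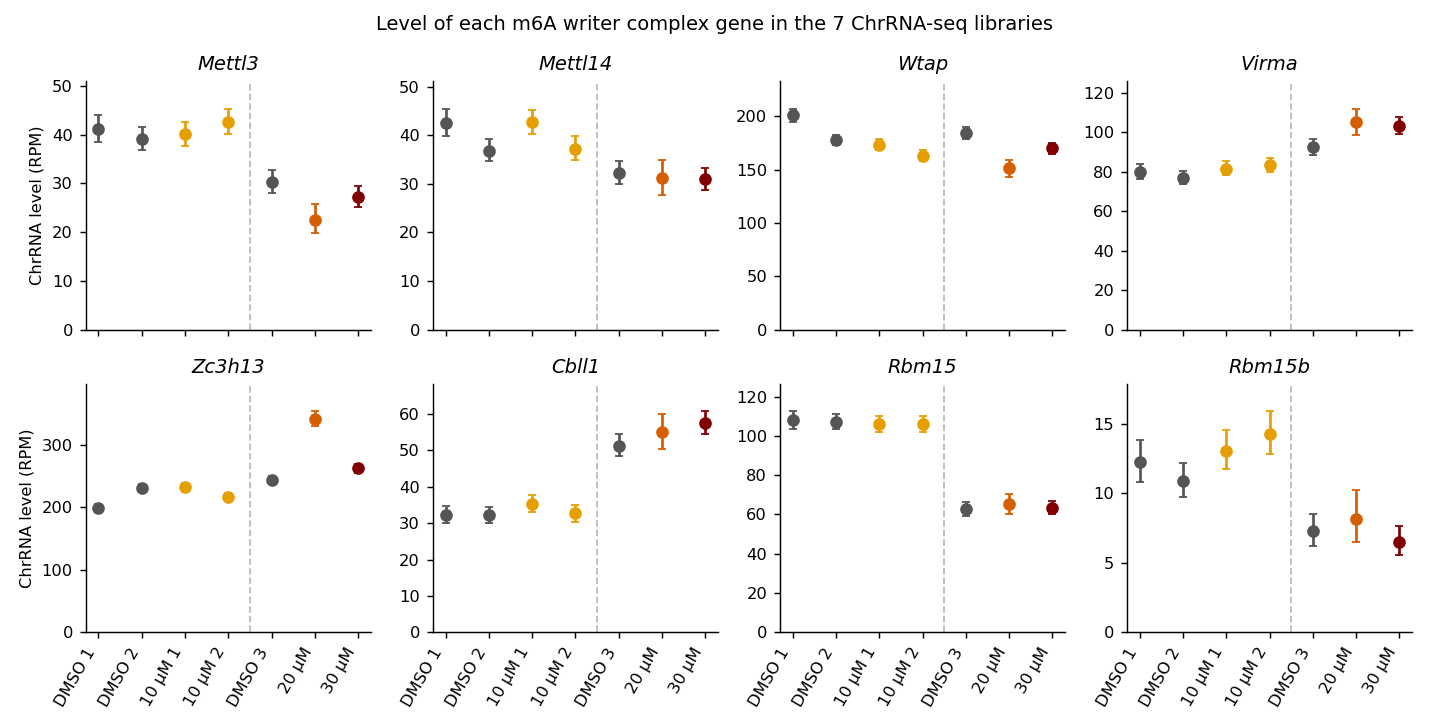
ChrRNA level (RPM, y axis from 0) of each gene of the complex in each library (x axis), with 95% Wilson counting intervals. The dashed line separates set 1 (left) from set 2 (right): Mettl3, Mettl14, Rbm15 and Rbm15b are lower in every library of set 2 and Zc3h13, Cbll1 and Virma higher, whereas Wtap overlaps, as does Mettl14 with TMM factors.

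Mettl3 encodes the catalytic subunit and lies on chromosome 14, minus strand (52294841 to 52305128 in mm10), and the end of Tox4 on the other strand overlaps it. In DMSO replicates 1, 2 and 3 Mettl3 was at 41.2, 39.1 and 30.3 RPM, against 40.2 and 42.6 RPM at 10 µM, 22.6 RPM at 20 µM and 27.3 RPM at 30 µM. The 10 µM libraries lay beside the DMSO libraries of their set, and the lowest values were those of the 20 µM and 30 µM libraries, with DMSO replicate 3 next above them. Against DMSO replicate 3 the level was 0.746-fold at 20 µM (95% counting interval 0.635 to 0.873) and 0.901-fold at 30 µM (0.806 to 1.01). DMSO replicate 3 itself was at 0.735-fold of DMSO replicate 1 (0.662 to 0.814), a difference between untreated libraries as large as that between 20 µM and DMSO replicate 3. The lowest Mettl3 level was at 20 µM, not at 30 µM, and rests on 210 read pairs in the shallowest library.

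Mettl14, which encodes the partner of METTL3, lies on the minus strand of chromosome 3 (123368297 to 123386108). Its levels were 42.6, 36.9 and 32.2 RPM in the DMSO libraries, 42.7 and 37.2 RPM at 10 µM, 31.2 RPM at 20 µM and 30.9 RPM at 30 µM. The replicate pairs were almost superimposed, at 1.00-fold (95% counting interval 0.916 to 1.10) in the first pair and 1.01-fold (0.922 to 1.11) in the second. At the higher doses the ratios to DMSO replicate 3 were 0.968 (0.841 to 1.11) and 0.959 (0.863 to 1.07), and both intervals included 1. None of the 4 comparisons of single libraries gave a difference for Mettl14 beyond counting error.

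A ratio of genes within a library does not depend on how the library was scaled. The ratio of Mettl3 to Mettl14 read pairs was 0.967, 1.06 and 0.939 in the DMSO libraries, 0.941 and 1.15 in the 10 µM libraries, 0.724 at 20 µM (95% counting interval 0.603 to 0.868) and 0.882 at 30 µM (0.792 to 0.983). The 20 µM and 30 µM libraries had the lowest ratios of the 7. Of the 10 µM libraries 1 lay inside the range of the DMSO values and the other above it. For DMSO replicate 3, the untreated library of set 2, the counting interval was 0.843 to 1.05. The 30 µM ratio lay inside that interval, within counting error of DMSO replicate 3. The 20 µM ratio lay below it, although the 20 µM interval overlapped that of DMSO replicate 3. With 1 library at each of these doses neither ratio has a replicate check.

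Wtap, the scaffold that holds the heterodimer, is on the minus strand of chromosome 17 (12966796 to 12994169). Its levels were 201, 178 and 184 RPM in DMSO, 173 and 163 RPM at 10 µM, 151 RPM at 20 µM and 170.0 RPM at 30 µM. Every inhibitor library lay below every DMSO library, and Wtap was the only gene of the 7 for which this held, against 1.87% of all genes tested. It was also lower than the DMSO library of its pair or set in all 4 comparisons, which 14% of all genes were. The nearest libraries of the 2 groups, 10 µM replicate 1 and DMSO replicate 2, were within counting error of each other (95% Wilson intervals 168 to 178 and 173 to 183 RPM). The ratios were 0.861 (95% counting interval 0.825 to 0.899) and 0.915 (0.877 to 0.954) in the pairs, 0.822 (0.773 to 0.874) at 20 µM and 0.924 (0.884 to 0.966) at 30 µM. DMSO replicate 2 was itself at 0.885-fold of DMSO replicate 1 (0.849 to 0.922), and the smallest of the 4 differences was at the highest dose. With TMM factors, which rescale each library to the bulk of its genes, the 4 ratios were also below 1, at 0.869, 0.876, 0.899 and 0.895, but the levels at 20 µM and 30 µM (177 and 176) no longer lay below DMSO replicate 2 (171).

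Virma encodes the large scaffold protein that WTAP binds. The gene, on the plus strand of chromosome 4 (11485958 to 11550684), was at 80.1, 76.8 and 92.3 RPM in DMSO, 81.6 and 83.3 RPM at 10 µM, 105 RPM at 20 µM and 103 RPM at 30 µM. Its ratios to the DMSO library of the pair or set were 1.02, 1.08, 1.14 and 1.12, higher in all 4 comparisons, as were 15.9% of all genes, and they were also above 1 with TMM factors.

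Zc3h13, which encodes a zinc finger protein that keeps the complex in the nucleus, lies on the plus strand of chromosome 14 (75284373 to 75344426). It was measured at 199, 231 and 243 RPM in DMSO, 233 and 216 RPM at 10 µM, 341 RPM at 20 µM and 262 RPM at 30 µM. The 20 µM library stood above all others, at 1.40-fold of DMSO replicate 3 (95% counting interval 1.34 to 1.46), whereas 30 µM was at 1.08-fold (1.04 to 1.12). The replicate pairs went in opposite directions, at 1.17-fold (1.13 to 1.22) and 0.934-fold (0.900 to 0.969). In the 20 µM library 8.92% of read pairs fell on 5 genes (Lars2, Cmss1, Gphn, Cdk8 and Camk1d), against 0.212% to 1.16% elsewhere. Leaving these genes out of the total moved the ratio at 20 µM to 1.52 for Zc3h13 and to 0.809 for Mettl3.

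Cbll1 encodes HAKAI, a RING finger protein of the scaffold, and lies on the minus strand of chromosome 12 (31484829 to 31499616) with the short antisense gene Gm29542 inside it. It was at 32.3, 32.1 and 51.3 RPM in DMSO, 35.3 and 32.7 RPM at 10 µM, 54.9 RPM at 20 µM and 57.5 RPM at 30 µM. DMSO replicate 3 stood with the higher doses and not with the other DMSO libraries, at 1.59-fold of DMSO replicate 1 (95% counting interval 1.44 to 1.75). Against its own set the level was 1.07-fold at 20 µM (0.962 to 1.19) and 1.12-fold at 30 µM (1.03 to 1.21), and in the pairs it was 1.09-fold (0.988 to 1.21) and 1.02-fold (0.922 to 1.12). Of the 7 genes only Cbll1 was higher in all 4 comparisons, beside the 15.9% of all genes, and with TMM factors the second pair turned to 0.974.

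Rbm15 and Rbm15b encode the RNA-binding adaptors that bring the complex to Xist RNA. Rbm15, on the minus strand of chromosome 3 (107325421 to 107333673), was at 108, 107 and 62.7 RPM in DMSO, 106 and 106 RPM at 10 µM, 65.2 RPM at 20 µM and 63.5 RPM at 30 µM. The 4 libraries of set 1 spanned 106 to 108 RPM and the 3 of set 2 spanned 62.7 to 65.2 RPM, so the level followed the set and varied little inside it. The ratios to the DMSO library of the pair or set were 0.983 (95% counting interval 0.929 to 1.04), 0.988 (0.936 to 1.04), 1.04 (0.942 to 1.14) and 1.01 (0.939 to 1.09), and every interval included 1.

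Rbm15b had the fewest read pairs, from 76 at 20 µM to 335 in 10 µM replicate 2, and lies on the minus strand of chromosome 9 (106880918 to 106887428). Manf on the same strand overlaps it, and read pairs in the shared region cannot be given to either gene with certainty. Its levels were 12.2, 10.9 and 7.27 RPM in DMSO, 13.0 and 14.3 RPM at 10 µM, 8.17 RPM at 20 µM and 6.50 RPM at 30 µM. Both 10 µM libraries lay above all DMSO libraries, which was so for 16.6% of all genes, and the second pair, at 1.31-fold (95% counting interval 1.12 to 1.54), was the only pair or dose whose interval for Rbm15b left out 1. The ratio of Rbm15 to Rbm15b read pairs was 8.81, 9.86 and 8.63 in DMSO, 8.12 and 7.42 in the 10 µM libraries, 7.97 at 20 µM and 9.76 at 30 µM. The proportion of the paralogues overlapped between the sets, although both genes were lower in set 2.

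**Figure D2:**
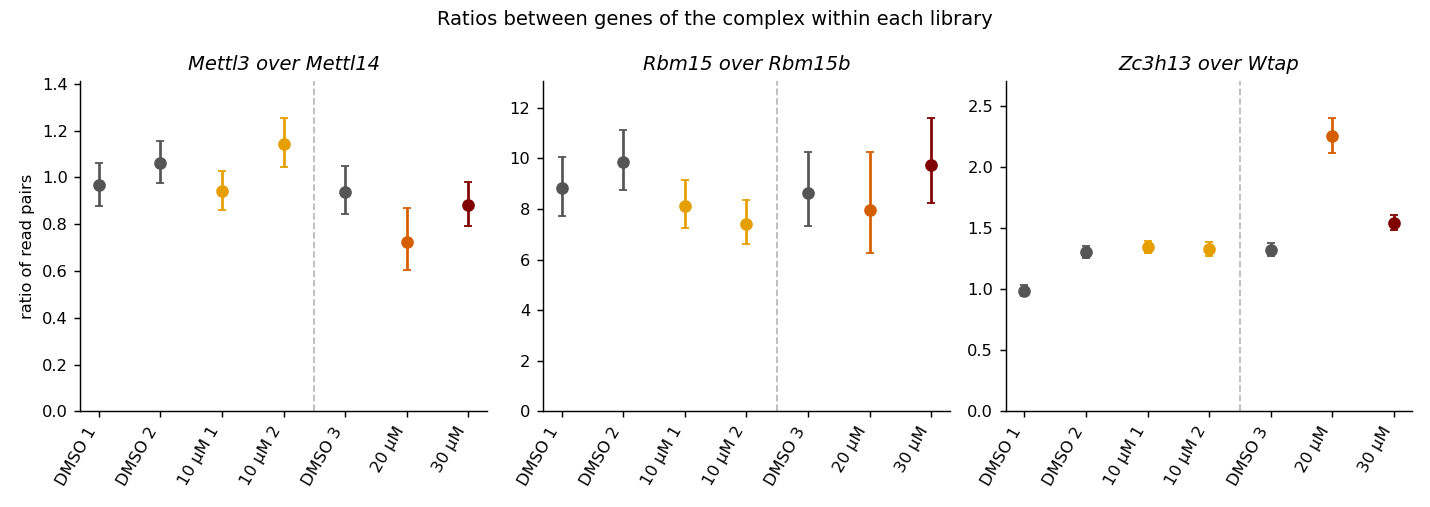
Ratio of read pairs between genes of the complex within each library (y axes from 0), with 95% exact counting intervals, for Mettl3 over Mettl14, Rbm15 over Rbm15b and Zc3h13 over Wtap. Mettl3 over Mettl14 is lowest at 20 µM (0.724), Rbm15 over Rbm15b lies between 7.42 and 9.86, and Zc3h13 over Wtap is highest at 20 µM (2.25). The dashed line separates set 1 from set 2.

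The ratio of Zc3h13 to Wtap, chosen after their values were seen, was 0.987, 1.30 and 1.32 in DMSO, 1.34 and 1.33 in the 10 µM libraries, 2.25 at 20 µM and 1.54 at 30 µM. At 10 µM the ratios were within counting error of DMSO replicates 2 and 3 and above that of DMSO replicate 1, and the highest ratio was at 20 µM.

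The sets differed in the complex among untreated cells as well. Mettl3, Mettl14, Rbm15 and Rbm15b, 4 of the 7 genes, were lower in every library of set 2 than in any of set 1, as were 39.8% of all genes, and Zc3h13 and Cbll1 were higher, as were 18.7%. With TMM factors Mettl14 no longer separated the sets, and the shares of all genes were 29.2% lower and 30.1% higher in set 2. Between DMSO replicate 3 and DMSO replicate 1 alone, 5 of the 7 genes differed by 1.25-fold or more, against 63.4% of all genes. Between DMSO replicate 3 and DMSO replicate 2, 4 of the 7 did, against 64.4% of all genes. The sets were defined from the expression of all autosomal genes, these included, so the separation is a description.

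Promoter sequence was looked at for the 2 genes that were higher in set 2, Zc3h13 and Cbll1, whose 250 bases before the start site hold no annotated exon. Both windows are from RefSeq promoter entries on build GRCm38.p6, which matched 6 of the 7 genes. Capitals mark matches on either strand to the GC box GGGCGG, the CCAAT box CCAAT, the TATA box TATAAA, the E-box CACGTG or the ETS motif CCGGAAG. The Zc3h13 window is chr14:75284116-75284365 on the plus strand and the Cbll1 window chr12:31499617-31499866 on the minus strand.
Zc3h13: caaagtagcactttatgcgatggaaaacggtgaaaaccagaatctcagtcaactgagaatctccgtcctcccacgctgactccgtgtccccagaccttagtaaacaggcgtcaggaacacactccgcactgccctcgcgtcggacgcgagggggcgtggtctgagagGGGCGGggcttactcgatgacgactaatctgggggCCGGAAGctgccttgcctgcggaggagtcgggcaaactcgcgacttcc
Cbll1: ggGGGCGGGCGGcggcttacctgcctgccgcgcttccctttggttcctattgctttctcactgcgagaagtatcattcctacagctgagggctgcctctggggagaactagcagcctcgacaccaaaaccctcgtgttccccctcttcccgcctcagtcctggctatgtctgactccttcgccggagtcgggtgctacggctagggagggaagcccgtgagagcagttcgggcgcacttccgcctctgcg
The windows hold 21 and 18 CpG dinucleotides, against a median of 6 over 32851 promoter windows. Neither count is particular to genes higher in set 2. The windows of Mettl3, Rbm15 and Rbm15b, all lower in set 2, hold 13, 18 and 40 CpG and 0, 0 and 3 GC boxes. Those of Wtap, which overlaps between the sets, hold 29 to 41 CpG and 2 to 3 GC boxes. These other windows include annotated exon bases. A GC box was matched in both (in 32.7% of all windows), with 2 overlapping matches in Cbll1, and an ETS motif in Zc3h13 (in 6.91% of all windows). The shares of all windows with the other motifs were 33.9% for CCAAT, 12.4% for TATAAA and 6.02% for CACGTG.

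At 10 µM, the only dose with replicates, no gene of the complex passed the test. Levels on the log2(RPM + 1) scale differed from DMSO by 0.17 for Mettl3 (95% confidence interval -0.29 to 0.64), 0.11 for Mettl14 (-0.34 to 0.56) and -0.16 for Wtap (-0.46 to 0.15), from limma on 3 against 2 libraries. They differed by 0.00 for Zc3h13 (-0.33 to 0.34), -0.14 for Cbll1 (-0.74 to 0.45), 0.23 for Rbm15 (-0.38 to 0.85), 0.42 for Rbm15b (-0.23 to 1.08) and -0.01 for Virma (-0.36 to 0.34). Of the 7 genes 0 passed the threshold (Benjamini-Hochberg adjusted p under 0.05 over all genes, limma), as did 0% of all 13599 genes, and 0 of the 7 had an unadjusted p under 0.05, against 212 of all genes. With edgeR 0 genes and with DESeq2 1 gene of the whole table passed, and that gene was not of the complex. The median change of the 7 genes was 0.11, beside 0.09 over all genes. The intervals are wide, and reach up to 0.64 for Mettl3 and 1.08 for Rbm15b. Of the 3 DMSO libraries in this fit DMSO replicate 3 is of set 2, whereas both 10 µM libraries are of set 1. The difference between the sets therefore enters these estimates and their intervals.

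The replicate block, in which each 10 µM library was compared with the DMSO library of its number, gave narrower intervals. DMSO replicate 3 has no partner and does not enter these differences. Differences became 0.04 for Mettl3 (95% confidence interval -0.15 to 0.24), 0.01 for Mettl14 (-0.19 to 0.20) and -0.17 for Wtap (-0.30 to -0.04). They were 0.06 for Zc3h13 (-0.06 to 0.19), 0.07 for Cbll1 (-0.13 to 0.27), -0.02 for Rbm15 (-0.17 to 0.13) and 0.22 for Rbm15b (-0.08 to 0.52), so that the signs of Cbll1 and Rbm15 turned. With the replicate block 1012 of the 13599 genes passed (7.44%) and 0 of the 7 (1, Wtap, at an unadjusted p under 0.05). Wtap came nearest, with an adjusted p of 0.0942 from limma, 0.207 with TMM factors and 0.182 with edgeR on the same pairs. With 2 pairs a gene has 1 residual degree of freedom, and the intervals rest on a spread shared by all genes.

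**Figure D3:**
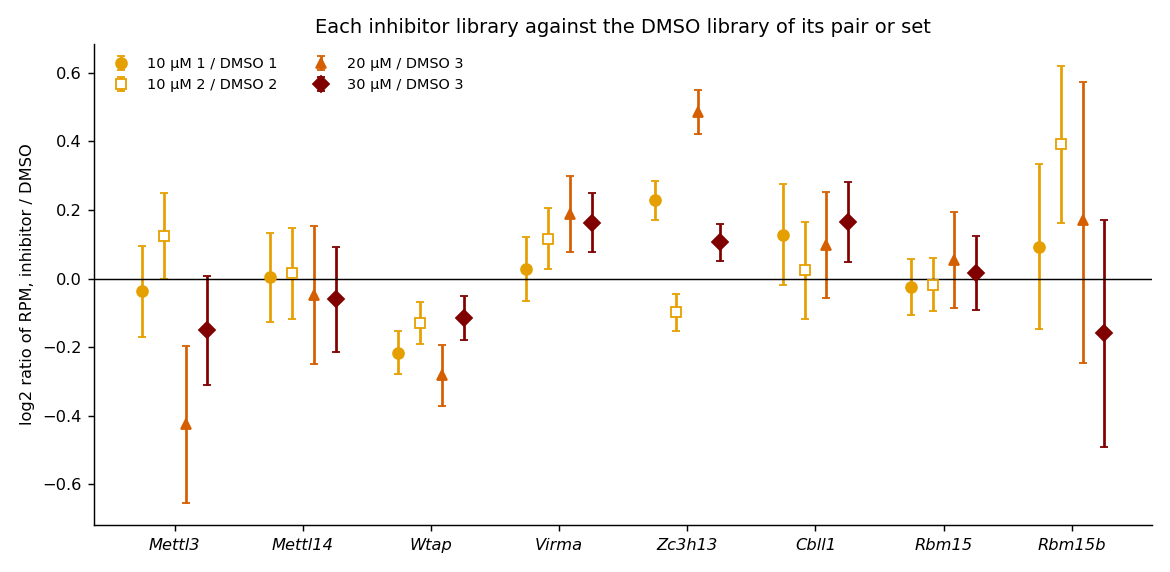
Log2 ratio of RPM (y axis) between each inhibitor library and the DMSO library of its pair (10 µM) or set (20 µM and 30 µM) for each gene (x axis), with 95% exact counting intervals. Wtap is below 0 in all 4 comparisons and Virma and Cbll1 above 0 (Cbll1 in the second pair is below 0 with TMM factors), while Mettl3 at 20 µM (0.746-fold) and Zc3h13 at 20 µM (1.40-fold) lie farthest from 0 in their directions.

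Genes of the 7 that differed by 1.25-fold or more were counted in each single comparison. There were 0 in the first 10 µM pair (18.9% of all genes), 1 in the second (Rbm15b, 22.2%), 2 at 20 µM (Mettl3 and Zc3h13, 44.5%) and 0 at 30 µM (32%). After rescaling, Mettl3 at 20 µM no longer reached 1.25-fold, at 0.815 with TMM factors and 0.809 without the 5 genes in the total. Zc3h13 still did, at 1.53 and 1.52.

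The trend over 0 to 30 µM addressed whether the genes follow dose. Slopes per 10 µM on the log2(RPM + 1) scale were -0.19 for Mettl3 (95% confidence interval -0.41 to 0.04), -0.09 for Mettl14 (-0.26 to 0.08), -0.07 for Wtap (-0.19 to 0.05), 0.13 for Zc3h13 (-0.03 to 0.30) and 0.22 for Cbll1 (-0.02 to 0.45), from limma over 7 libraries. They were -0.18 for Rbm15 (-0.43 to 0.07), -0.17 for Rbm15b (-0.46 to 0.13) and 0.12 for Virma (-0.01 to 0.25). Of the 7 genes 0 passed the threshold, as did 0% of all genes (limma, 1174 at an unadjusted p under 0.05, 0 with edgeR and 129 with DESeq2), and the adjusted p of the 7 lay between 0.508 and 0.550. The mean dose of the 7 libraries is 10 µM, so the 10 µM libraries carry no weight in the slope.

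With the library set as a covariate the slopes were -0.05 for Mettl3 (-0.20 to 0.09), -0.07 for Wtap (-0.19 to 0.04), 0.06 for Zc3h13 (-0.07 to 0.20), 0.06 for Cbll1 (-0.06 to 0.18) and 0.00 for Rbm15 (-0.10 to 0.11). The slope of Wtap depended on the scaling, and with TMM factors it was -0.02 without the set and -0.08 with it. In this fit 27 of 13599 genes passed (0.199%) and 0 of the 7, with limma as with edgeR (0 at an unadjusted p under 0.05). With the replicate block, in which numbers 1 and 2 and set 2 were 3 blocks, the slopes of the 7 genes were those of the fit with the set to 2 decimals, and 58 genes passed (0.427%) and 0 of the 7. Without DMSO replicate 3, when set 2 holds no untreated library, 2485 genes passed (18.3%), and of the 7 Cbll1 (slope 0.31, adjusted p of 0.0330 from limma) and Rbm15 (slope -0.29, adjusted p of 0.0325 from limma) were among them. Dose and set cannot be told apart in that fit.

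**Figure D4:**
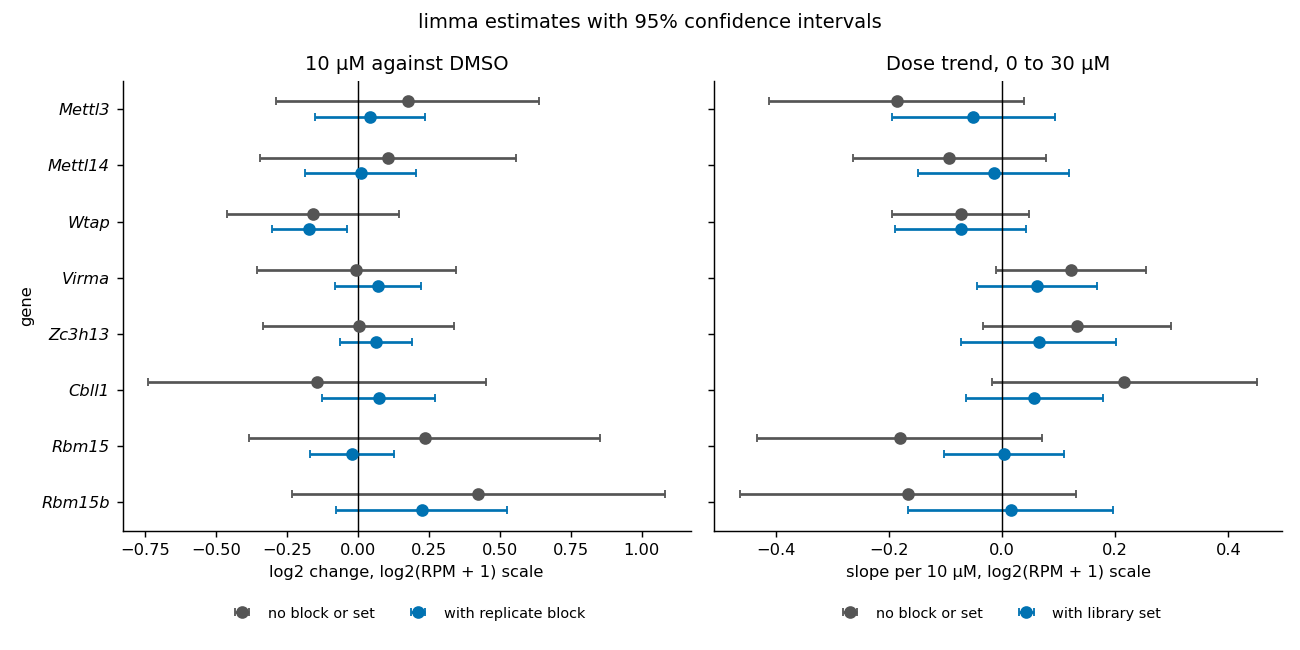
Differences at 10 µM (left) and slopes per 10 µM over all doses (right) on the log2(RPM + 1) scale (x axes), with 95% confidence intervals from limma, for each gene (y axis). Grey points are fits without and blue points fits with the replicate block (left) or the library set (right), and the only interval drawn that leaves out 0 is that of Wtap with the block (-0.30 to -0.04).

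The genes whose levels were most like that of Mettl3 over the 7 libraries, among 10738 genes that averaged 5 RPM or more, were Zfp324, Trim11 and Ccdc117, with Pearson's r of 0.997, 0.997 and 0.996. Each of them was lower in set 2, for Trim11 from 118.8 to 137 RPM in set 1 to 40.1 to 65.0 RPM in set 2. Between the 2 genes of the heterodimer r was 0.863 over 7 libraries and 0.12 after the set means were removed, and between Rbm15 and Rbm15b it was 0.942 and 0.09. Not every pair of the 7 genes fell toward 0 in this way. Between Mettl3 and Zc3h13, a pair picked after the values were seen, r was -0.917 and -0.920. These values share the libraries and their depth and are given without a test.

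The other genes of the m6A pathway were 16 genes for readers, erasers, and separate methyltransferases and their partners, of which 15 reached 1 RPM. Of the 15, 0 passed the threshold at 10 µM or over dose with limma, edgeR or DESeq2 (0 and 2 at an unadjusted p under 0.05 in limma), with differences at 10 µM from -0.30 (Igf2bp1) to 0.26 (Ythdc2) and a median of -0.01. With the replicate block 1 of the 15 passed, beside 7.44% of all genes. It was Igf2bp3, which encodes an RNA-binding protein that can bind methylated mRNA. Igf2bp3 levels were 141, 126 and 123 RPM in DMSO, 123 and 105 RPM at 10 µM, 85.8 RPM at 20 µM and 90.7 RPM at 30 µM. Its difference with the block was -0.23 (adjusted p of 0.0242 from limma, 0.0632 with TMM factors and 0.0504 with edgeR). Over dose without DMSO replicate 3, 5 of the 15 passed with limma, beside 18.3% of all genes, and dose and set cannot be told apart there.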

How the data were processed

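RPM values of 7 ChrRNA-seq libraries were analysed. The authors discarded reads that mapped to rRNA (bowtie2), used STAR to align the remainder to mm10 with polymorphic bases masked, retained only unique alignments, assigned read pairs to the full span of transcripts on their strand with featureCounts, and deposited the counts as RPM, scaled to the total on genes with edgeR. No control for global changes in RNA output was used here. In each library all values above 0 were whole multiples of 1 read pair (100%, within 0.1 read pairs), so read pairs were recovered and used for counting intervals (95%, Wilson for a level, exact for a ratio), which cover counting error only.

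The main test was limma 3.58.1 on log2(RPM + 1) with a mean trend, for the 13599 genes that averaged 1 RPM or more, with Benjamini-Hochberg adjustment over all of them and a threshold of 0.05. A fold change on this scale understates that of low genes. Alternatives were edgeR 4.0.16 and DESeq2 1.42.0 on the recovered read pairs, TMM factors, the total without 5 genes, other filters and pseudocounts, each library left out, the replicate block and the library set as a covariate. Fits were tested on simulated data that held no differences between library sets or replicate pairs, so behaviour under those differences was not tested. The study states that treated and control wells of a replicate came from the same batch of cells, and the deviations of same-numbered DMSO and 10 µM libraries correlated at 0.621 over 13599 genes, so numbers 1 and 2 were taken as pairs. The 20 µM and 30 µM libraries have no replicate and no test of their own. P-values measure the spread between these libraries, which in fits without the set or block includes the difference between the sets. With the replicate block at 10 µM they rest on a spread shared by all genes, not on that of each gene.

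Gene positions are from GENCODE vM21 and promoter windows from RefSeq, both on the build of the files. Allelic ratios, which cover X-linked genes, were not used. Genes named are the 7 members, Virma, the pathway list by counts and range, and the 3 genes most like Mettl3 over the libraries (those after removal of set means are not reported here). Igf2bp3, the range ends and the ratio of Zc3h13 to Wtap were picked after their values were seen. The members and lists were chosen with earlier results of these data known.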

Additional observations from a re-analysis of the deposited data

How the results depend on the processing

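No gene of the complex passed the threshold at 10 µM under any alternative run, and over dose Cbll1 and Rbm15 passed only without DMSO replicate 3. Of 88 differences at 10 µM under settings that kept every library, 73 kept their sign and 15 reversed, and of 112 slopes, those with the set but without the 20 µM or 30 µM library included, 102 did and 10 reversed. The cause was not tested. Over all genes, 10 µM gave 0 calls, against 1 with DESeq2, 1012 with the replicate block, 863 and 880 with the replicate block and TMM factors or edgeR, and 0 to 1 with a library left out. The dose trend gave 0, against 129 with DESeq2, 27 with the library set, 68 and 73 with the set and TMM factors or edgeR, 156 and 426 with the set but without the 20 µM or the 30 µM library, and 0 to 2485 with a library left out, the highest without DMSO replicate 3. With the replicate block over dose, in which numbers 1 and 2 and set 2 were the blocks, since the 20 µM and 30 µM libraries pair with no number, 58 genes passed.

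At 10 µM the sign reversed as follows. With the replicate block it was 0.074 for Cbll1, -0.021 for Rbm15 and 0.071 for Virma. With the replicate block and TMM factors it was -0.014 for Mettl14, 0.051 for Cbll1, -0.045 for Rbm15 and 0.047 for Virma, and with the replicate block and edgeR -0.017, 0.049, -0.048 and 0.045. Zc3h13, at 0.0033 in the main analysis, was -0.080 with TMM factors, -0.0014 without 5 genes in the total, -0.10 with edgeR and -0.11 with DESeq2. With one library left out, Zc3h13 ran from -0.082 to 0.064, Cbll1 from -0.26 to 0.074, Rbm15 from -0.021 to 0.365 and Virma from -0.059 to 0.071. Leaving out a 10 µM library leaves 1 in that arm, which is assumed to vary like DMSO.

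Over dose, slopes with the library set were 0.0033 for Rbm15 and 0.016 for Rbm15b, against -0.18 and -0.17 without it, and the same with the replicate block. They were 0.0086 and 0.012 for Rbm15b with the set and TMM factors or edgeR, 0.00064 for Rbm15 and 0.0027 for Rbm15b with the set but without 20 µM, and 0.011 and 0.12 without 30 µM. With one library left out and no set, Cbll1 ran from 0.18 to 0.31 and Rbm15 from -0.29 to -0.14, their far ends without DMSO replicate 3. Without 30 µM Wtap reached -0.155 and Zc3h13 0.243, and the slope of Rbm15b was -0.015, against -0.265 without DMSO replicate 3. Wtap was at its weakest without DMSO replicate 1 (-0.050) and Zc3h13 without 20 µM (0.072). With the set and without 30 µM they were -0.151 and 0.183, against -0.073 and 0.064 with all libraries, and did not pass (adjusted p of 0.139 or more, limma). The ratio at 20 µM to DMSO replicate 3 moved beyond its counting interval for Wtap (0.899 with TMM factors, 0.892 without 5 genes), Zc3h13 (1.53 and 1.52) and Virma (1.25 and 1.24). The combined fits, the replicate block over dose and these rescaled ratios were chosen after seeing the data. Depth limits Rbm15b most, with 76 to 335 read pairs.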
